A study of Sus scrofa with 29 samples.

Results

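Immediate early genes are switched on within minutes of a growth factor, a change of flow or a stress, before any new protein has to be made. FOS and JUN family proteins pair to form the AP-1 transcription factor, EGR1 is a zinc finger factor that responds to the same kinase signals, and BTG2 and ZFP36 act on messenger RNA decay. Their transcripts are short-lived, so that a tissue sample holds what was induced shortly before or during its collection. In the artery lining they are known as responders to shear stress and injury.

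The genes described here were those named FOS, FOSL1, JUN, JUNB, JUND, EGR1, ATF3, IER2, BTG2 or ZFP36 by the platform annotation of a porcine oligonucleotide array. Of these 10 symbols, 8 had a probe set, and 12 probe sets of the 23999 that are not controls carried one of them. FOSL1 and EGR1 had 3 probe sets each and the other genes 1 each. JUNB and JUND had none under their symbol and were not analysed here. The name of the set fits only in part, since BTG2 and ZFP36 are not transcription factors.

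The arrays measured RNA scraped from the luminal surface of 2 arteries of pigs, the brachial artery of the foreleg and the internal mammary artery, which runs behind the ribs. Exercised pigs ran on a treadmill for 16 to 20 weeks, reaching bouts of 85 min on 5 days per week by week 10, and were killed about 24 h after their last bout, while sedentary pigs stayed in their pens. There were 7 exercised and 7 sedentary brachial arrays and 8 exercised and 7 sedentary internal mammary arrays, 29 in all from 15 pigs. Both arteries were measured in 14 pigs, and exercised pig 12_2 had an internal mammary array alone, where the series text states that the unpaired pig had a brachial array. All pigs received the same anaesthetics, and strain, age and sex are not given in the sources used here. For the exercised pigs' internal mammary arteries, 1 label (the source) says sedentary, and titles and treatment tags were followed instead.

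A scrape is enriched for endothelium and is not a pure cell population. Of 11 endothelial markers (PECAM1, CDH5 and others) all 11 were measured, and their mean ran between 10.7 and 11.4 log2 units over all arrays. Smooth muscle markers, 9 measured of 11, had a mean of 10.9 to 13.1, which does not give the share of muscle RNA, since levels of different probe sets cannot be compared. In such bulk samples, fewer cells of a type and less RNA per cell cannot be told apart. Values are the authors' log2 intensities, so 1 unit is a doubling, and their normalization is not given in the sources used here.

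The arteries also differed in control measures, and no label gives the array run, so run and artery cannot be told apart. The mean of 27 hybridization control probe sets was 11.3 to 11.8 in brachial arrays and 10.6 to 11.2 in internal mammary arrays. The excess of the 3′ over the 5′ control signal grows as RNA or its copies shorten. For actin it was 1.80 to 2.74 in brachial arrays and 1.03 to 1.75 in internal mammary arrays. For GAPDH it went the other way, with overlap, at 0.09 to 0.61 in brachial and 0.36 to 0.92 in internal mammary arrays. The 28S rRNA probe set read 6.22 to 8.82 in brachial arrays and 9.96 to 14.1 in internal mammary arrays. Macrophage markers, 8 of 11 measured, averaged 8.44 to 8.99 in exercised brachial arrays, 8.84 to 9.86 in sedentary brachial arrays, 8.88 to 9.59 in exercised internal mammary arrays and 9.02 to 9.79 in sedentary internal mammary arrays. The actin difference and the macrophage mean were each tried as a covariate, and the GAPDH difference was not.

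The largest differences in these genes lay between the arteries. BTG2, FOS, EGR1, JUN, IER2 and ZFP36 were all lower in the brachial artery than in the internal mammary artery, and passed in exercised and in sedentary pigs. The changes ran between -2.62 and -0.97 in exercised pigs and between -2.07 and -0.63 in sedentary pigs. FOSL1, which is dim on this array, was slightly higher in the brachial artery, and ATF3 did not pass. Averaged over training groups, 8 of the 12 probe sets were lower and 3 higher by limma with pig as a random block, at an adjusted p under 0.05. These p-values set the change against the spread left after group means, with the 2 arteries of a pig taken as correlated. They cover only the pigs sampled here. Over all probe sets 22.5% were lower and 31.8% higher in the same comparison, 54.3% in either direction, so that 58.6% of the calls were higher, and 69.4% were with arrays centred again on their medians. The median change of the 12 was -0.96, against a median of 0.03 over all probe sets. The 8000 brightest probe sets of the array include all 8 lowered ones. Of these 8000, 30.3% were lower and 19.1% higher in the same comparison, with a median change of -0.04.

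**Figure D1:**
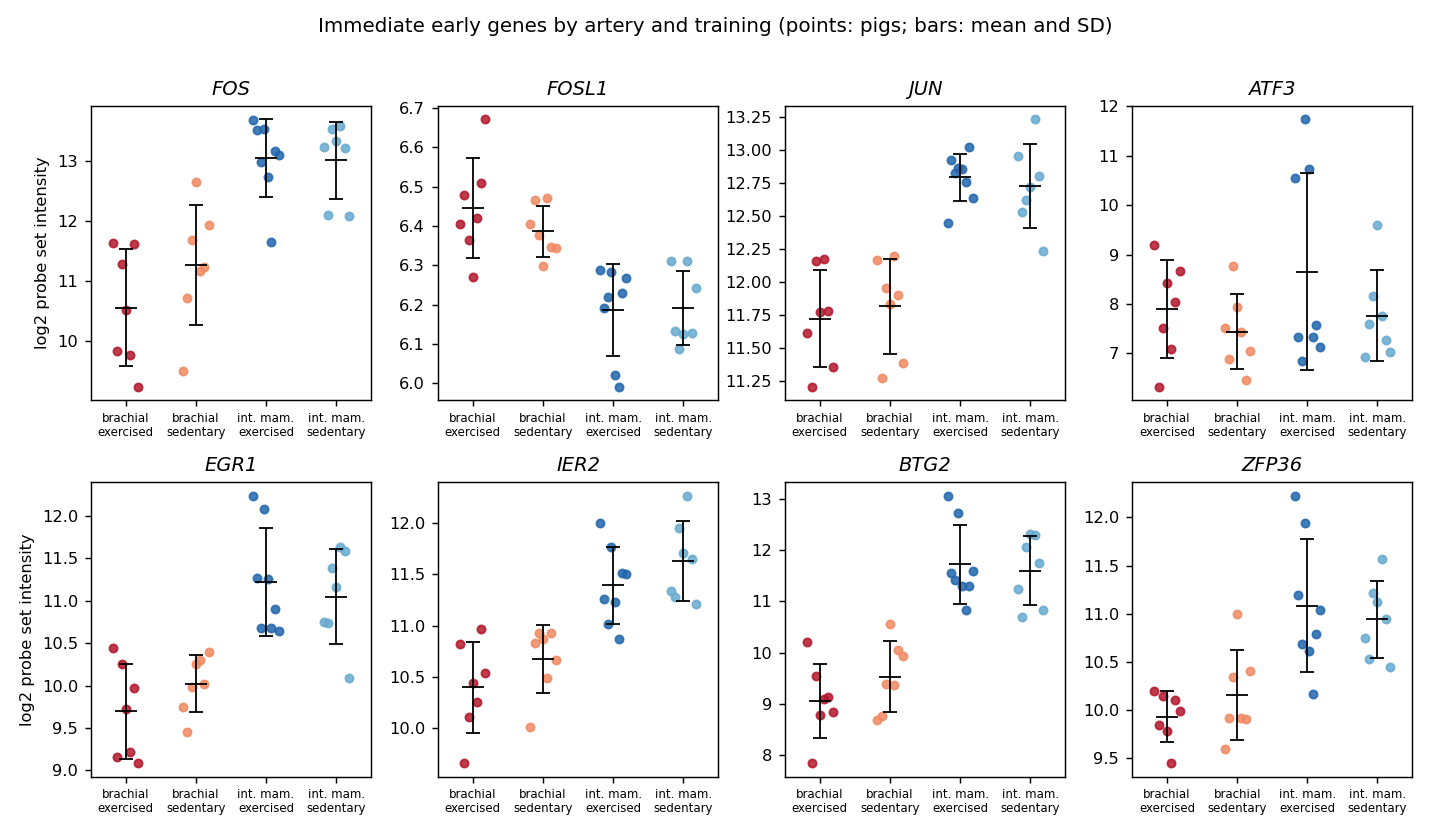
Log2 probe set intensity of each immediate early gene in every array, in brachial and internal mammary arteries of exercised and sedentary pigs (points are pigs, bars are mean and SD, n = 7, 7, 8 and 7). FOSL1 and EGR1 are shown by their probe set of highest mean, and the axes do not start at 0. Brachial values of JUN and BTG2 all lie below the internal mammary ones, while ATF3 has 4 high internal mammary values.

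BTG2, which holds back cell division and brings the CCR4-NOT deadenylase to messenger RNAs, differed most. Its intensity in brachial arteries was 7.84, 9.09 and 10.20 (lowest, median and highest) in exercised pigs and 8.67, 9.39 and 10.55 in sedentary pigs. In internal mammary arteries it was 10.82, 11.48 and 13.06 in exercised pigs and 10.69, 11.75 and 12.31 in sedentary pigs. Every brachial value lay below every internal mammary value, the highest brachial one being that of sedentary pig 12_3. The change, brachial minus internal mammary, was -2.35 ± 0.21 (SE, adjusted p = 3.74e-10), or 5.09-fold lower with a 95% interval of 3.77 to 6.86. It ranked 5th lowest of the 23999 probe sets.

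FOS encodes the AP-1 subunit that needs a JUN partner to bind DNA. In brachial arteries of the 7 exercised pigs it read 11.63, 9.84, 11.28, 10.51, 9.77, 11.62 and 9.24. The sedentary brachial arteries spanned 9.50 to 12.66 with a median of 11.24. Internal mammary arteries gave 11.65, 13.14 and 13.68 (lowest, median, highest) in exercised pigs and 12.09, 13.24 and 13.59 in sedentary pigs. Exercised groups did not overlap, whereas in sedentary pigs the brachial value of pig 12_3 was above the lowest internal mammary ones. The change was -2.11 ± 0.25 (adjusted p = 7.9e-08), 4.31-fold lower (95% interval 3.00 to 6.18), and ranked 11th lowest. BTG2 and FOS were among 16 probe sets that were lower by 2 log2 units or more.

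JUN, the usual partner of FOS in AP-1, differed by less but with little spread. Its brachial values were 11.20, 11.77 and 12.17 in exercised pigs and 11.27, 11.90 and 12.20 in sedentary pigs. Its internal mammary values were 12.45, 12.84 and 13.02 in exercised pigs and 12.23, 12.71 and 13.23 in sedentary pigs. No brachial value reached the lowest internal mammary value. Over all arrays, JUN and BTG2 were the 2 probe sets of the 12 with all brachial values below (1.44% of all probe sets), and none had all brachial values above (1.73%). The change was -0.99 ± 0.09 (adjusted p = 8.32e-10), 1.99-fold lower (1.74 to 2.27).

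EGR1 was measured by 3 probe sets, all lower in the brachial artery. The brightest read 9.08, 9.72 and 10.45 in exercised and 9.46, 10.02 and 10.40 in sedentary brachial arteries. In internal mammary arteries it read 10.64, 11.08 and 12.24 in exercised and 10.09, 11.16 and 11.64 in sedentary pigs. Arteries of exercised pigs did not overlap, and those of sedentary pigs did, because internal mammary pig 17_1 was low. In order of brightness, the changes were -1.26 ± 0.16, -1.66 ± 0.17 and -0.80 ± 0.13 (adjusted p = 2.61e-07, 5.33e-09 and 8e-06), so the probe sets share the direction and differ in size.

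IER2, a small nuclear protein of the early response, was 9.66, 10.44 and 10.97 in exercised and 10.01, 10.83 and 10.93 in sedentary brachial arteries. Internal mammary arteries gave 10.87, 11.38 and 12.00 in exercised and 11.21, 11.65 and 12.27 in sedentary pigs. The sedentary groups did not overlap and the exercised groups did. Its change was -0.97 ± 0.12 (adjusted p = 7.88e-08).

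ZFP36, or tristetraprolin, binds AU-rich elements and brings the deadenylase to early and cytokine transcripts. It was 9.44, 9.99 and 10.20 in exercised and 9.59, 9.92 and 11.00 in sedentary brachial arteries, against 10.16, 10.91 and 12.23 in exercised and 10.44, 10.94 and 11.57 in sedentary internal mammary arteries. Both pairs of groups overlapped. Its change was -0.96 ± 0.15 (adjusted p = 5.05e-06). In exercised pigs alone the change was -1.13 ± 0.21, and adding the mean of the macrophage markers to the model gave -0.54 (adjusted p = 0.104), the 1 lowered probe set of the 8 that no longer passed there.

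FOSL1, which encodes Fra-1, a FOS relative induced later than FOS, moved the other way by small amounts. Its 3 probe sets lay between the 28.4th and 38.0th percentile of mean intensity, and changed by 0.23 ± 0.04, 0.34 ± 0.05 and 0.51 ± 0.05 (adjusted p = 4.93e-06, 3.52e-06 and 1.78e-09). The last of them read 5.75, 5.95 and 6.08 in exercised and 5.62, 5.80 and 5.97 in sedentary brachial arteries. It read 5.19, 5.35 and 5.67 in exercised and 5.13, 5.24 and 5.60 in sedentary internal mammary arteries, with no overlap within either training group. Among the 7999 dimmest probe sets of the array 44.9% were higher in the brachial artery and 9.68% lower, with a median change of 0.11. They include 2 of the 3 FOSL1 probe sets. The brightest FOSL1 probe set lies among the 8000 probe sets of middle brightness, where 31.3% were higher and 27.5% lower.

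ATF3, a stress-induced factor that can pair with JUN and often represses, had the widest spread of the 12 probe sets in the internal mammary artery (a range of 4.89), while in the brachial artery FOS did (a range of 3.42, against 2.88 for ATF3). Brachial arteries read 6.32, 8.04 and 9.20 in exercised and 6.47, 7.43 and 8.77 in sedentary pigs, and internal mammary arteries 6.84, 7.46 and 11.74 in exercised and 6.92, 7.60 and 9.61 in sedentary pigs. In the internal mammary artery, exercised pigs 12_2, 12_5 and 10_1 stood at 11.74, 10.73 and 10.55 and sedentary pig 12_3 at 9.61, while the other 11 arrays reached at most 8.16. The brachial arteries of pigs 10_1, 12_5 and 12_3 read 9.20, 8.43 and 7.94. The artery change of -0.49 ± 0.38 did not pass (adjusted p = 0.291).

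The same 8 probe sets passed lower and the same 3 higher in each training group taken alone, by a count of shared probe sets. In exercised pigs 17% of all probe sets were lower and 24.2% higher (41.2% in either direction), and in sedentary pigs 14.2% were lower and 20.5% higher (34.8% in either direction). BTG2 changed by -2.62 ± 0.30 in exercised and -2.07 ± 0.30 in sedentary pigs, FOS by -2.47 ± 0.36 in exercised and -1.74 ± 0.36 in sedentary pigs. Ranges of the 2 arteries did not overlap for 5 lowered probe sets in exercised pigs (BTG2, FOS, JUN and 2 of EGR1; 4.22% of all probe sets) and for 3 in sedentary pigs (BTG2, JUN and IER2; 2.89%). For 1 FOSL1 probe set brachial values lay above in both training groups, where the background was 5.37% in exercised and 4.16% in sedentary pigs. The difference between training groups is the interaction tested below.

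Within pigs, FOS, JUN, IER2, BTG2 and ZFP36 were lower in the brachial artery in 14 of 14 animals, and each EGR1 probe set in 13 of 14. FOS differed by -3.87, -1.93 and -0.15 (lowest, median, highest) and BTG2 by -3.71, -2.35 and -0.91. JUN kept to a narrow span of -1.72 to -0.58, and ATF3 was lower in only 8 of 14 pigs, from -2.30 to 1.52. Sedentary pig 17_1 had the smallest difference in 6 of the 8 lowered probe sets and was the pig in which EGR1 was not lower. Exercised pig 10_5 had the largest difference in 4 of the 8. The 3 EGR1 probe sets measure 1 gene, so these counts are not of independent genes.

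**Figure D2:**
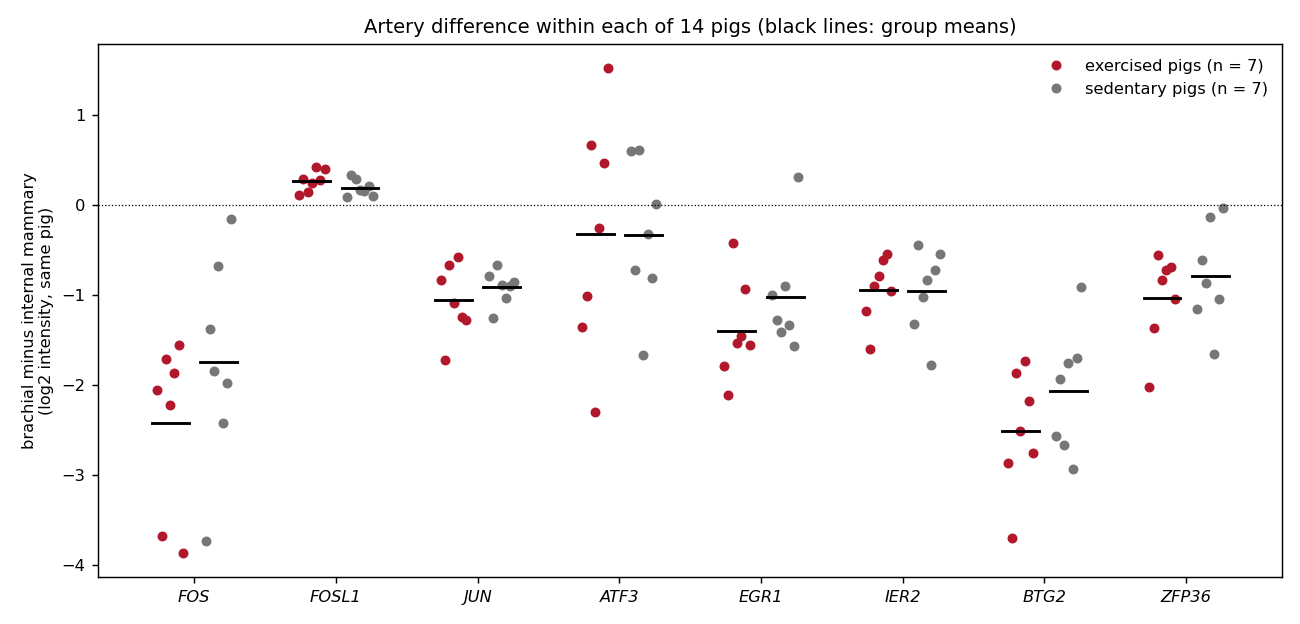
Brachial minus internal mammary log2 intensity within each of the 14 pigs with both arteries, for 7 exercised and 7 sedentary pigs (points are pigs, lines are group means). FOS, JUN, IER2, BTG2 and ZFP36 lie below 0 in every pig, FOSL1 (probe set of highest mean) lies above 0, and ATF3 lies on both sides.

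With the actin difference or the macrophage mean entered as a covariate, the lowered genes kept their direction, averaged over training groups. Because actin values of the 2 arteries did not overlap, the actin fit cannot tell RNA shortening from artery. The GAPDH difference, which went the other way between arteries, was not entered. With the actin 3′ minus 5′ difference, BTG2 changed by -2.97 (adjusted p = 0.000679), FOS by -3.33 (adjusted p = 0.000885) and JUN by -0.83 (adjusted p = 0.0191). With the actin term, IER2 and the dimmest EGR1 probe set moved furthest among the others, to -1.46 and -1.17 (adjusted p = 0.00144 and 0.0164). With the macrophage marker mean, BTG2 changed by -1.83, FOS by -1.66 and JUN by -0.97 (adjusted p = 7.98e-08, 3.72e-05 and 2.17e-07). Of the macrophage markers, 5 of 8 were lower in the brachial artery averaged over training groups, where 22.5% of all probe sets were lower. C1QC was lower by 0.69 and TYROBP by 0.46 on the log2 scale. In exercised pigs these 2 changed by -1.05 and -0.75. In sedentary pigs they changed by -0.32 and -0.17 and did not pass (limma adjusted p = 0.116 and 0.353). The mean of the markers was 9.25 in sedentary brachial arrays and 9.31 in sedentary internal mammary arrays. The part of the 28S signal and of the hybridization controls in these differences was not tested. Nor was that of the order and timing in which the 2 arteries of a pig were collected.

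Training changed none of the 12 probe sets past the threshold in either artery. In the brachial artery 0 of 12 passed, where limma called 1.63% of all probe sets (1.02% higher and 0.613% lower), and the adjusted p ran between 0.344 and 0.838. FOS was lower by most, with a change of -0.70 ± 0.42, exercised minus sedentary (adjusted p = 0.452). Its 95% interval ran between 2.95-fold lower and 1.12-fold higher, so changes inside it could not be told from 0 with 7 pigs a group. EGR1 changed by -0.30 ± 0.27, -0.50 ± 0.29 and -0.43 ± 0.21 and BTG2 by -0.43 ± 0.35, none of which passed. In all, 9 of the 12 values were negative with a median of -0.23, against a median of 0.01 over all probe sets. The ranges of exercised and sedentary brachial arteries overlapped for all 12. Of the macrophage markers, C1QC, FCER1G and TYROBP (3 of 8) fell in the same comparison, by 0.81, 0.88 and 0.66 on the log2 scale. With the mean of the macrophage markers in the model, 5 of the 12 values turned positive, FOS at 0.11, BTG2 at 0.49, ZFP36 at 0.37 and 2 of EGR1 at 0.28 and 0.03, and none of the 12 passed (FOS adjusted p = 0.963). The sign of these 5 values depends on that covariate.

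In the internal mammary artery 0 of 12 passed as well, against 0.596% of all probe sets. Here 9 of the 12 values were positive, with a median of 0.08. ATF3 had the largest, 0.89 ± 0.61 (adjusted p = 0.61), which rests on the 3 high exercised pigs named above. FOS changed by 0.03 ± 0.41 (adjusted p = 0.99), its exercised and sedentary means being 13.05 ± 0.65 and 13.01 ± 0.64 (SD, n = 8 and 7). IER2 changed by -0.23 ± 0.19 and BTG2 by 0.12 ± 0.34. Averaged over arteries, 0 of 12 passed where 4.68% of all probe sets did (2.88% higher and 1.8% lower).

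The interaction asks whether training changed a gene differently in the arteries. None of the 12 passed, and limma called 0 of all probe sets (0%), with 1035 at an unadjusted p under 0.05. The smallest unadjusted p among the members was that of 1 EGR1 probe set (-0.72 ± 0.34, unadjusted p = 0.0447, adjusted p = 1). FOS gave -0.73 ± 0.51 and BTG2 -0.56 ± 0.42. Of the 12 values, 10 were negative, and the median was -0.33 against 0.00 over all probe sets.

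**Figure D3:**
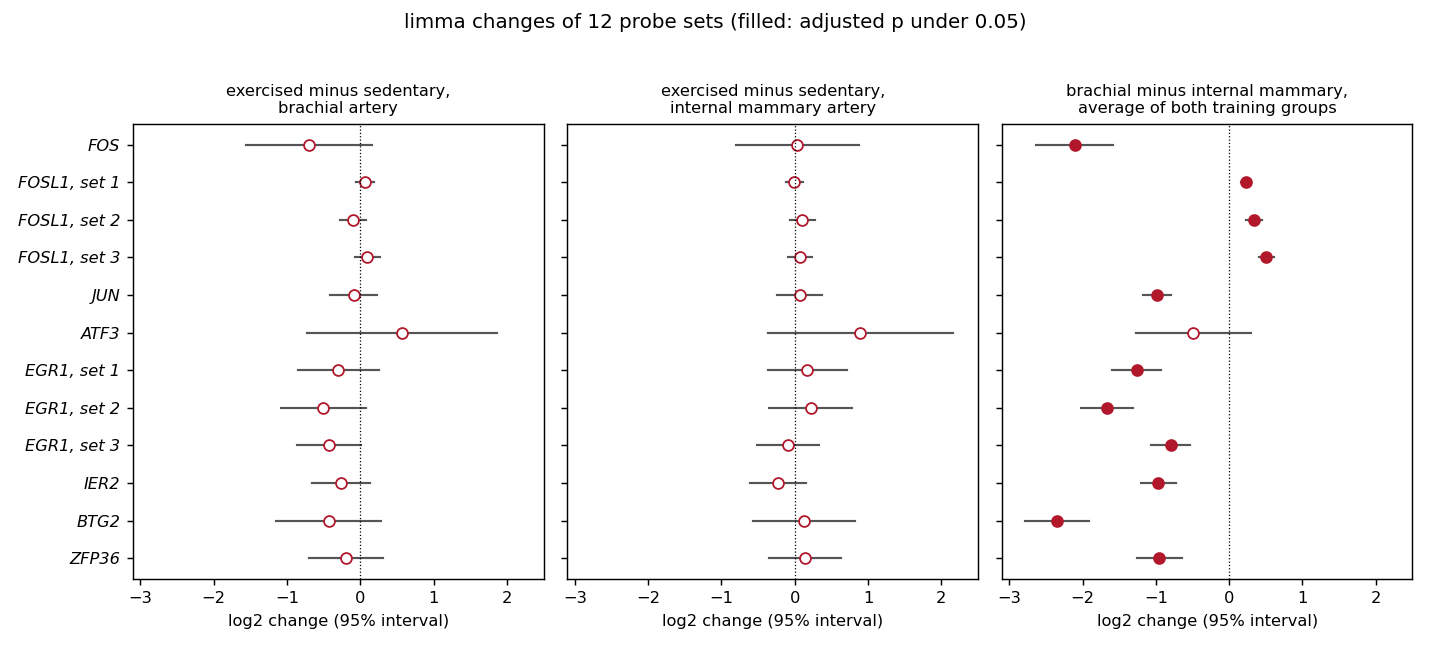
limma changes of the 12 probe sets with 95% intervals on the log2 scale, for exercised minus sedentary in each artery and for brachial minus internal mammary. Filled points have an adjusted p under 0.05: none for training, and 11 of 12 for artery, where ATF3 is the open point.

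Some of the genes varied together from pig to pig. Correlations were taken within an artery after removing training group means, over 56 gene pairs, with two-sided permutation tests adjusted over all of them. By Pearson, 12 of 28 pairs passed in the internal mammary artery and 5 of 28 in the brachial artery, where 8 of the 28 values were negative. The 12 include EGR1 with ATF3 and BTG2 with ATF3, although the values of ATF3 are clustered. By Spearman the first pair passed and the second did not (adjusted permutation p = 0.0125 and 0.204). The part of the clusters in these 2 pairs was not tested. In the internal mammary artery (15 pigs), the 10 pairs among FOS, EGR1, IER2, BTG2 and ZFP36 all passed by Pearson and by Spearman, a grouping made after the values were seen. Pearson's r ran from 0.706 for FOS with EGR1 to 0.948 for BTG2 with ZFP36 (rho = 0.946, adjusted permutation p = 0.00028 for r). A further check left out, for each pair, the 2 pigs farthest from the median of its first gene in the order above. These pigs can differ between pairs, and extreme values of the second gene can stay. With these pigs left out, r ran between 0.613 and 0.899. Within the 8 pigs collected first it was 0.651 to 0.987, and within the 7 collected last 0.680 to 0.972. Exercised pigs 10_1 and 12_2 had the highest values of BTG2, ZFP36 and 2 of the 3 EGR1 probe sets in this artery.

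In the brachial artery (14 pigs) the same 10 pairs had r of 0.354 to 0.811, and 5 passed by Pearson and 4 by Spearman. FOS with EGR1 gave r = 0.811 and rho = 0.802 (adjusted permutation p = 0.00377 and 0.00514). In the 7 pigs collected last, r of the 10 pairs ran between 0.145 and 0.903, and in the 7 collected first between 0.474 and 0.938. Whether the arteries differ in this was not tested. JUN passed with no other gene in either artery, its r lying between -0.318 and 0.409, ATF3 left aside. ATF3 is given no pooled r, since its internal mammary values fall into separate clusters.

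**Figure D4:**
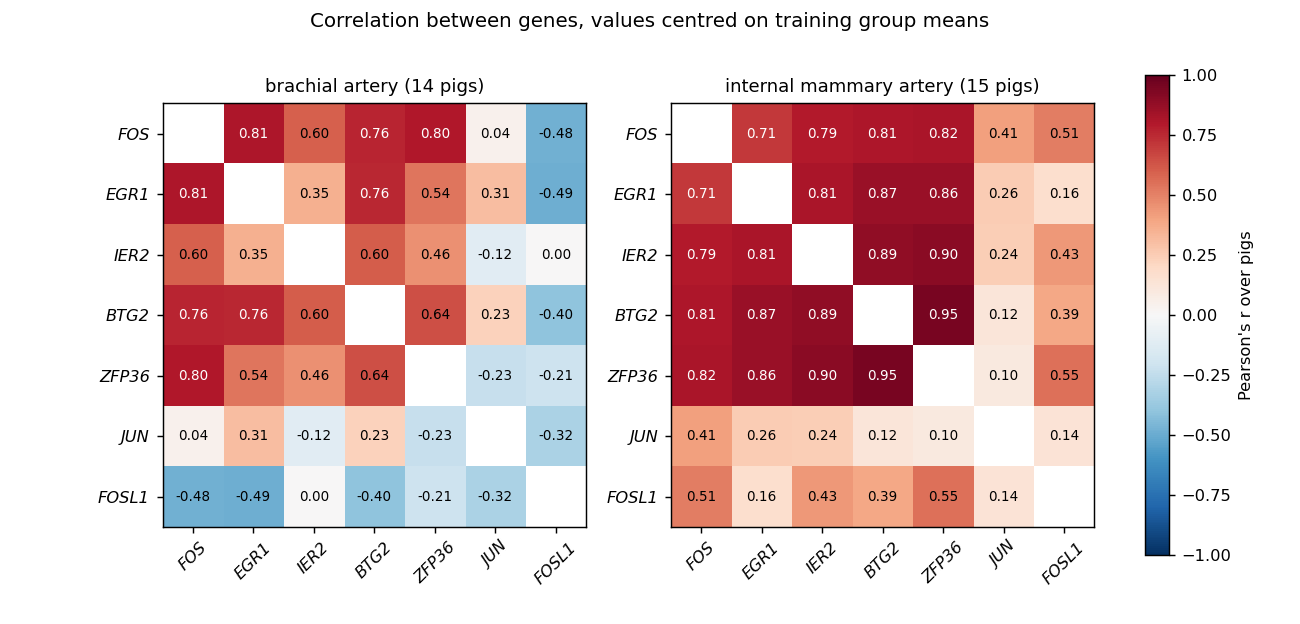
Pearson's r between genes over pigs, after removing training group means, in the brachial (14 pigs) and internal mammary artery (15 pigs). FOS, EGR1, IER2, BTG2 and ZFP36 form a block with r of 0.71 to 0.95 in the internal mammary artery, and JUN and FOSL1 lie outside it. ATF3 is not shown.

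A pig with high levels in one artery did not stand out reliably in the other. Over 14 pigs, r between arteries ran from 0.199 for FOS to 0.547 for JUN, ATF3 left aside, and none of the 8 tests passed after adjustment (FOS permutation p = 0.494, JUN permutation p = 0.0427 unadjusted and 0.156 adjusted). All 8 values were positive. Collection day and the 28S/18S ratio of the RNA gave 0 of 32 passing relations.

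By likeness over all 29 arrays, a description that includes the shared artery difference, BTG2 was closest to FOS (r = 0.925), EGR1 (r = 0.933), IER2 (r = 0.906) and ZFP36 (r = 0.911) among 6765 genes. The 3 genes nearest to FOS, EGR1, BTG2 and ZFP36 were in each case the other 3. For IER2 they were BTG2, FOS (r = 0.876) and E2F3 (r = 0.860), and for FOSL1 PAEP, FLYWCH1 and VSTM2L (r = 0.885, 0.881 and 0.870). JUN was nearest to C9H1orf27, ZNF397 and EYA3 (r = 0.874, 0.867 and 0.851), and within arteries those values fell to between 0.132 and 0.446.

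Other genes of the early response, 30 measured of 42 listed, were partly lower in the brachial artery too, with 12 lower, 2 higher and 16 not passing. Over all probe sets 22.5% were lower and 31.8% higher. The lower ones included CYR61, a matricellular protein (-0.99 ± 0.13, adjusted p = 4.02e-07), the kinase PLK2 (-0.78 ± 0.12), the endothelial factor KLF4 (-0.55 ± 0.10) and PTGS2, the inducible cyclooxygenase (-1.29 ± 0.26). CEBPB, IER3 and CXCL2 changed by -0.41, -0.57 and -0.66. The shear-induced factor KLF2 was higher by 0.51 ± 0.09 (adjusted p = 4.82e-05). The median of the 30 was -0.24. With training, GADD45A (-0.92 ± 0.21, adjusted p = 0.0218) and PLK2 (-0.84 ± 0.20, adjusted p = 0.025) fell in the brachial artery, 2 of 30 genes, where 0.613% of all probe sets fell. None of the 30 passed in the internal mammary artery, where HES1 (-1.04) and ID1 (-0.59) had the smallest p. Averaged over arteries, GADD45A (-0.68) and PLK2 (-0.58) fell and the cytokine IL6 rose (1.11 ± 0.33, adjusted p = 0.0479).

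**Figure D5:**
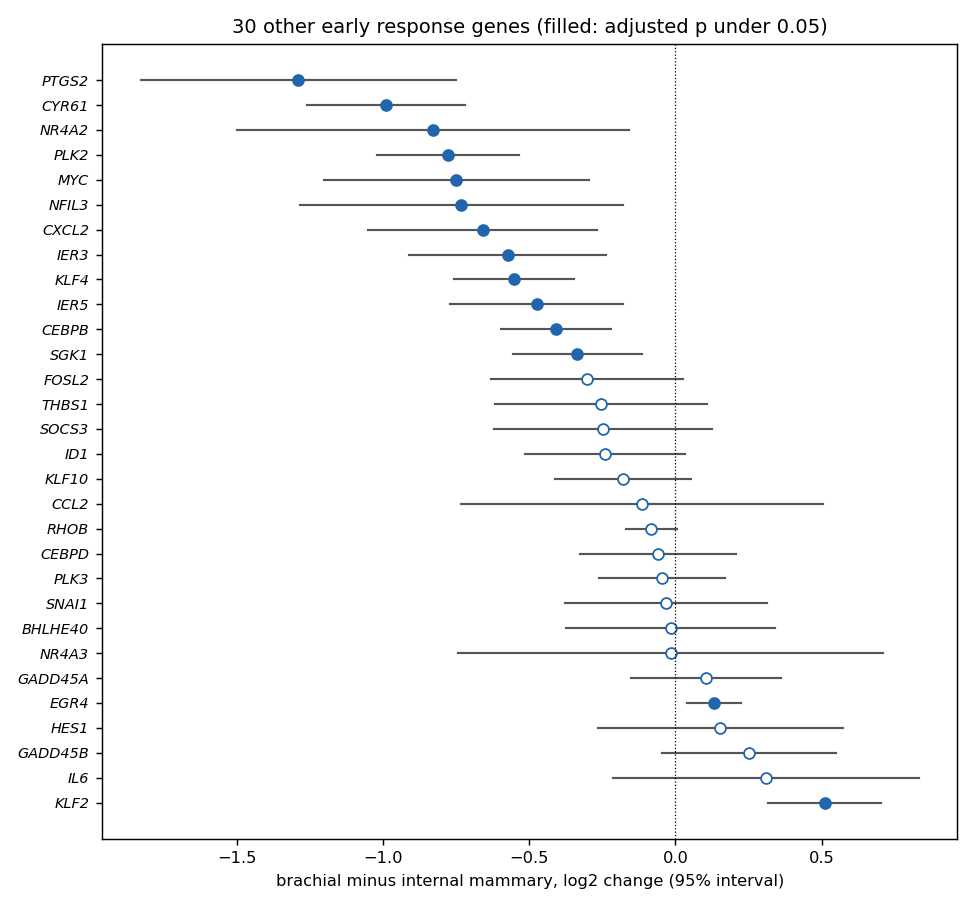
Brachial minus internal mammary log2 change (average of both training groups) with 95% intervals for 30 other early response genes. Filled points have an adjusted p under 0.05, 12 of them below 0, from PTGS2 at -1.29 to SGK1, and KLF2 and EGR4 above 0.

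Inhibitors that feed back on the early response were sparsely measured, 3 of 14, and 2 of them were lower in the brachial artery. DUSP1, which acts on p38 and JNK, changed by -0.72 ± 0.14 and DUSP6, which acts on ERK, by -0.77 ± 0.16 (adjusted p = 6.13e-05 and 0.000158), while NFKBIA, which holds back NF-kappaB, did not pass. Of the kinases and factors upstream, 11 measured of 28, 4 were lower and 3 higher, all by at most 0.33. These counts of upstream genes lie near the background of 31.8% higher and 22.5% lower. MAPK8, or JNK1, changed by -0.33 ± 0.07 and MAPK14, or p38, by -0.20 ± 0.07, while MAPK3, or ERK1, changed by 0.13 ± 0.04. With training averaged over arteries, MAPK3 alone of the 11 passed, higher by 0.18 (adjusted p = 0.0355).

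Other AP-1 partners were represented by ATF5 (0.58 ± 0.04) and ATF4 (0.22 ± 0.08), both higher in the brachial artery, 2 measured of 12. Among relatives of BTG2 and ZFP36 and the deadenylases they work with, 10 measured of 18, 6 were lower and 1 higher. Of all probe sets 22.5% were lower and 31.8% higher. CNOT6L, a catalytic subunit of CCR4-NOT, was lowest (-0.56 ± 0.08, adjusted p = 2.91e-06), CNOT1, its scaffold, changed by -0.17 ± 0.05 and PAN2 was higher by 0.24. Genes known as AP-1 targets, 15 measured of 20, were 6 higher and 3 lower, against 31.8% higher and 22.5% lower of all probe sets. Their counts lie near that background. The higher ones were TGFB1 (0.22) and 5 matrix metalloproteinases, MMP2 at 0.47 ± 0.06 being bright and MMP9, MMP3, MMP13 and MMP1 (0.23 to 0.29) dim. VEGFA (-0.28 ± 0.05) and HMOX1 (-0.18 ± 0.05) were lower. MMP2 was also higher with training averaged over arteries (0.32, adjusted p = 0.0212).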

How the data were processed

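The authors deposited 1 log2 intensity per probe set for each of 29 single-colour arrays. Per the labels' protocols the RNA was primed from its poly(A) tail, and per the submitters' processing notes affy was used, with no version, so the summary and normalization are not given in the sources used here. The number of arrays limits precision. Signal over background could not be measured.

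The 23999 probe sets left without 124 controls entered one limma model (version 3.58.1 in R 4.3.3). It held a mean for each of the 4 groups and treated the pig as random, with an estimated correlation of 0.255. Both arteries came from the same animal, which is the pairing. Adjustment was by Benjamini-Hochberg over all probe sets at 0.05, in 7 contrasts. Changes are brachial minus internal mammary or exercised minus sedentary. Correlations used 100000 resamples. The fit was tested on simulated data.

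The members, lists and tests were chosen with earlier results of these data known. Every member is reported, up to 8 passing genes of a list are named by smallest p (the 2 with the smallest p where none passed), and so are the 3 genes most like each member, except for ATF3, whose values cluster. Figures used matplotlib 3.10.9. Alternatives were 14 settings and leaving out each pig. That on the actin controls was chosen after seeing the data. No sequences are printed.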

Additional observations from a re-analysis of the deposited data

Results flagged for a closer look

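Among 48 tests, 1 for each probe set in each group, a single array stood apart from its group. In the internal mammary artery of exercised pigs, FOS read 11.65 in pig 14_3, where the nearest other pig read 12.74, and the gap took 0.537 of the group's range against a critical value of 0.526. Chance gives about 1 such value in 20 tests. Without pig 14_3 the FOS change stayed within -2.24 to -1.94, the span over all pigs left out in turn, and it passed each time.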

How the results depend on the processing

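The count of members passing averaged over training groups was 11 as reported and with each pig left out, 9 where the dimmest probe sets and with them 2 of FOSL1 were dropped, and 10 with the actin covariate. Training calls were 0 in every setting. No called member changed direction. Sign turns among values that never passed were not counted as reversals and numbered 6, 25, 45 and 22 for training in the brachial artery, in the internal mammary artery, averaged, and for the interaction.

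In sedentary pigs the member count was 6 with the pigs collected last alone (FOS -1.52, adjusted p = 0.0625) and 7 with the actin covariate, and 9 with the pigs collected first alone, when 1 EGR1 probe set and ZFP36 lost their calls (adjusted p = 0.123 and 0.125). In exercised pigs it was 9 with the macrophage covariate, when ZFP36 and 1 FOSL1 probe set lost theirs, and 10 without pig 12_5, when 1 FOSL1 probe set lost its call (0.19, adjusted p = 0.0569). Uncentred values brought FOS with IER2 (r = 0.650) and IER2 with BTG2 (r = 0.651) past the threshold in the brachial artery.

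In the setting named replicate block as a fixed effect, only the artery and interaction contrasts used within-pig differences. Its training contrasts were not paired, since training does not vary within a pig. They were fitted in each artery alone, and averaged on each pig's mean of both arteries. There limma called 122 probe sets for training in the brachial artery, 13 in the internal mammary artery and 364 averaged. The reported model called 392, 143 and 1123, and 1996 were called averaged with no replicate block. The fixed-effect setting changed no call of a member.

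Counts over all probe sets moved further. Pigs collected first alone gave 11, 5 and 252 for those training contrasts, and 5360 and 3944 for artery in exercised and in sedentary pigs, against 9887 and 8340. Pigs collected last alone gave 0 in each artery by limma (2355 brachial and 1662 internal mammary at an unadjusted p under 0.05) and 28 averaged, and 5943, 3283 and 8596 for artery in exercised pigs, in sedentary pigs and averaged. The smooth muscle covariate gave 768 in the brachial artery, 240 in the internal mammary artery and 3 for the interaction. The macrophage covariate gave 5 in the brachial artery, 336 averaged, and 6295 for artery in exercised pigs. The actin covariate gave 591 and 254 for training, and 4402, 3623 and 4850 for artery. Array weights gave 337 and the 28S/18S covariate 273 in the internal mammary artery. The cause was not tested.

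With each pig left out, training counts ran from 149 (without pig 12_5) to 589 (without pig 15_4) in the brachial artery, 35 (without pig 10_5) to 291 (without pig 10_2) in the internal mammary artery, 705 to 1223 averaged, and 0 to 1 for the interaction. Centring arrays on their medians again moved the higher share of artery calls to 69.4% averaged, 71.6% in exercised and 70.4% in sedentary pigs, against 58.6%, 58.8% and 59.1%.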

Other observations

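Beside the macrophage markers, markers of other cell types differed between arteries, where 54.3% of all probe sets did. Averaged over training groups, 3 endothelial markers were higher and 2 lower of 11, with EGFL7 at 0.77 ± 0.08. Of 9 smooth muscle markers 2 were higher, DES at 2.11 ± 0.36 and CNN1 at 0.82 ± 0.34, and 1 lower, MYLK at -0.87 ± 0.20. None of 4 fibroblast markers passed. The B cell receptor component CD79B was lower by 0.99 on the log2 scale, with CD2 and CD3E of T cells higher by 0.25 and 0.33, 3 of 4 lymphocyte markers. LEP and ADIPOQ of adipocytes were higher by 0.29 and 0.14 in the brachial artery. CD79B rose with training in the internal mammary artery (1.46 ± 0.31, adjusted p = 0.0244). Of the remaining markers, HBB of red cells changed by -0.36, and the platelet marker GP9 was higher by 0.20. Adding the mean of the smooth muscle markers to the model, FOS changed by -1.94 and BTG2 by -2.22 between arteries, and all 11 members that had passed still did. The part of the other lists in the levels of the immediate early genes was not tested.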
